A study of Mus musculus with 16 samples.

Results

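The mouse genome encodes a large family of collagens, and 44 of the 45724 genes in the deposited tables were taken as its members: every protein-coding gene whose symbol is Col, a number, a and a number. The tables hold 20967 protein-coding genes in all. The members were divided by textbook class into 11 fibrillar collagens, 8 collagens of basement membranes, 4 transmembrane collagens, 9 fibril-associated collagens and 12 others that form microfibrils, networks or anchoring structures or fall in none of these groups. Neurons in primary culture came from brains of C57BL/6 mice at postnatal day 0 (P0). The study gave these cultures 1 of 3 peptides attributed to the subcommissural organ, a small secretory structure of the midline brain: NP24, Tβ10 or Tβ4, the last 2 being β-thymosins (Tb10 and Tb4 in the plots). Control cultures received Dulbecco's phosphate-buffered saline (DPBS). Each group had 4 libraries of total RNA, and no deletion or transgene is named for any group. Dose, duration and culture age are not given in the sources used here. The labels do not say whether replicates were separate cultures, so p-values measure only the spread between these samples, which may be technical.

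Collagens are proteins of the extracellular matrix whose chains wind in a triple helix, which needs a glycine at regular spacing along each chain. Fibrillar collagens assemble into the tensile fibres of connective tissue, and in the brain they are known mainly from the meninges and the walls of vessels. Collagens of basement membranes form the sheet under vessel walls and at the surface of the brain, while transmembrane collagens stay anchored in the membrane of the cell that makes them, among them the neuronal collagen encoded by Col25a1.

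Between 11642242 and 38254320 reads per library were assigned to genes, so 1 read was worth 0.536 to 1.71 of the normalized counts in which every level is given here. The 10 marker genes of neurons summed to 80258 to 88577 normalized counts in the controls, so the labelled cell type was present. Markers of other cells were present as well: 8488 to 10229 for 8 astrocyte genes, 1916 to 2224 for 9 genes of microglia and macrophages, 944 to 1573 for 10 genes of pericytes and smooth muscle and 174 to 205 for 10 endothelial genes. A few genes carried much of some sums. Of the mean control sum of 1203 for pericytes and smooth muscle, Cspg4 gave 403, Notch3 266 and Pdgfrb 219, while Kcnj8 averaged 0.201. For microglia and macrophages, Cx3cr1 gave 1304 and P2ry12 371 of 2076, while Tyrobp averaged 19.1. These sums alone do not show that each cell type was present. Tβ4 library 1 stood apart from the other libraries. Mitochondrial ribosomal RNA took 24.3% of its reads against 8.25% to 15.5% in the other Tβ4 libraries and 4.76% to 14.2% elsewhere, and the 44 collagens summed to 18092 normalized counts against 9605 to 10384 in the other Tβ4 libraries. In RNA of whole cultures, fewer cells of a type and less RNA per cell cannot be told apart.

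The classes differ in their coding sequence, shown here for a fibre-forming, a network-forming and a membrane-bound chain. In the longest annotated coding sequence of each gene (GENCODE, GRCm38), a glycine codon (GGN) stood at the first of every 3 codons over long unbroken runs. The longest run held 216 to 344 such repeats in the fibrillar collagens (median 338), against 30 to 66 in those of basement membranes and 40 to 55 in the transmembrane ones. Runs of at least 5 repeats numbered 2 to 3 per fibrillar gene, but 11 to 27 in the basement membrane class and 5 to 14 in the transmembrane class. A stretch around the end of the longest run is printed for a member of each class, with glycine codons in capitals and all other codons in lower case.
Col3a1 coding bases 3523 to 3657: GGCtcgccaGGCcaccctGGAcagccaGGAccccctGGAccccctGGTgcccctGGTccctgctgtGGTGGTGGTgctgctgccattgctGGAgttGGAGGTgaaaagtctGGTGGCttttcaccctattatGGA
Col4a1 coding bases 3994 to 4128: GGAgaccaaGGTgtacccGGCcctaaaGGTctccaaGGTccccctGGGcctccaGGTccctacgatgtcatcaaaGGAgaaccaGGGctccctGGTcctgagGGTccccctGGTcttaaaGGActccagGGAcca
Col25a1 coding bases 1882 to 1998: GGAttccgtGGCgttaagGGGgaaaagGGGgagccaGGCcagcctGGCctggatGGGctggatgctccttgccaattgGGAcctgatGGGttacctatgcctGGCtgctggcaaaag
In Col3a1, a chain of type III collagen, the run of 344 repeats ended at 63 bases into the stretch, after which glycine codons lost their spacing. Col4a1, the α1 chain of type IV collagen, had a longest run of 40 repeats, and after a short interruption the spacing of 3 codons resumed in a further run, of which it had 22 in all. Col25a1, with a longest run of 40 and 6 runs, reached the end of its coding sequence with the stretch shown.

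**Figure D1:**
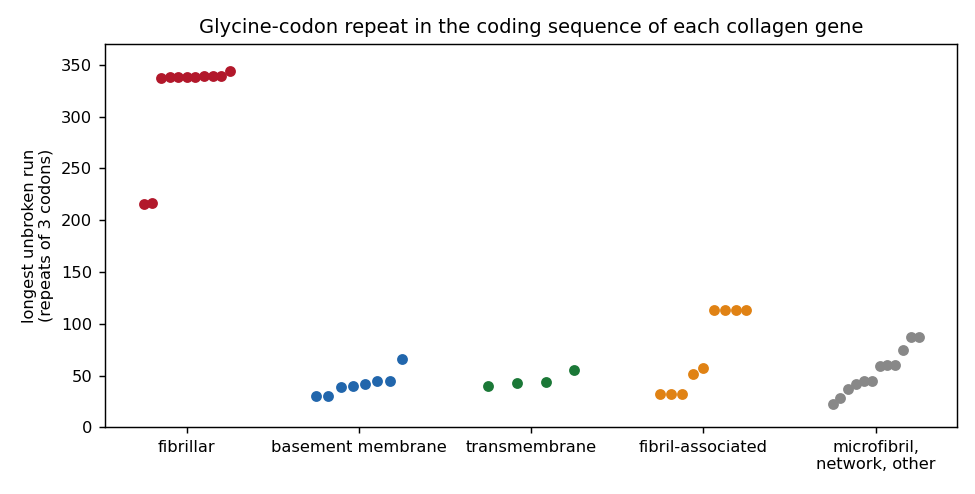
Longest unbroken run of glycine codons at a spacing of 3 codons (y axis, repeats) in each of the 44 collagen genes, 1 point per gene, by class. Fibrillar collagens lie at 216 to 344 repeats, above every gene of the other classes, whose highest value is 113.

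Levels in the controls were led by Col4a2 and Col4a1 of the basement membrane class, not by a fibrillar gene. By level per kb, the other members of that class ranked from 8 (Col18a1) to 40 (Col4a3) of 44. Divided by the length of the annotated exons in kb, Col4a2 stood at 209.5 ± 8.27 and Col4a1 at 168 ± 28.1 normalized counts per kb (mean ± SD, n = 4), the paired chains of the main type IV network. Col9a3, a chain of the fibril-associated type IX collagen, followed at 94.995 ± 10.9, and the transmembrane collagen gene Col23a1 at 82.3 ± 16.9. Neighbours in this order overlapped: the range of Col4a1 (141 to 207) ran into that of Col4a2 (197 to 215), and that of Col23a1 (59.5 to 96.4) into that of Col9a3 (84.3 to 105). The highest fibrillar genes were Col11a1 at 57.6 ± 10.9 and Col11a2 at 51.1 ± 9.23, both of type XI. The best-known fibrillar genes were much lower: Col1a1 ranked 19 of 44 at 12.9 ± 3.92, Col3a1 ranked 24 at 9.63 ± 3.65 and Col1a2 ranked 27 at 6.43 ± 1.84 normalized counts per kb. Col25a1 reached 30.1 ± 6.85 and Col6a6, which encodes a chain of beaded microfibrils, 60.9 ± 20.6. At least 1 read of 42 of the 44 genes was present in every library. No more than 6.07% of any member's exon bases (Col9a3, with Tcfl5 on the opposite strand) lay in exons of another gene. Overlap with introns of other genes was not counted.

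**Figure D2:**
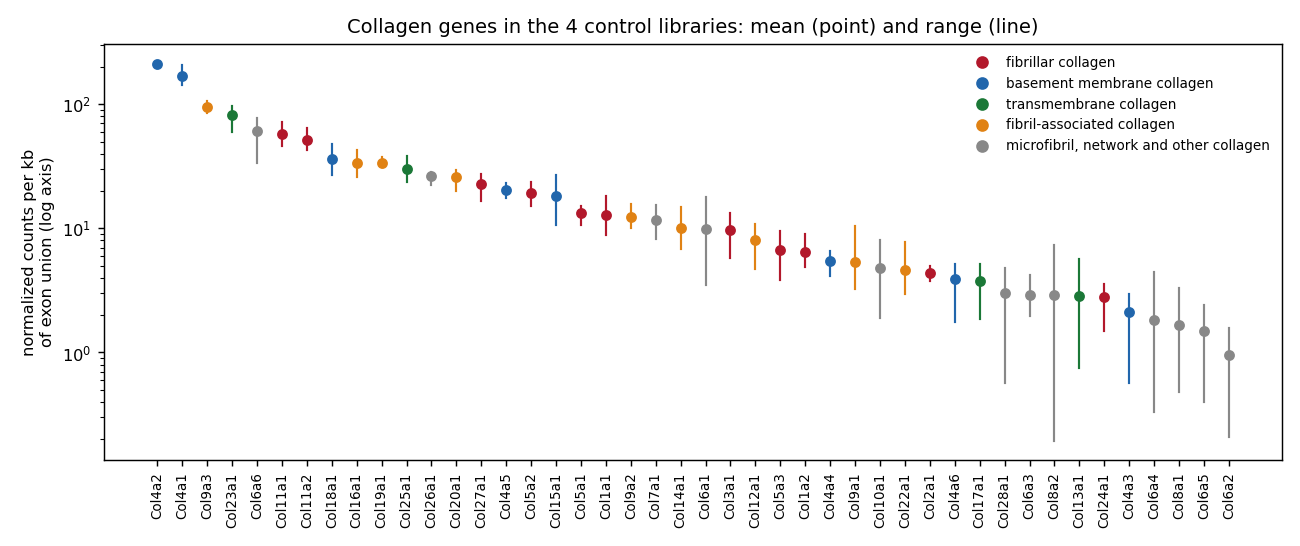
Level of each of the 44 collagen genes in the 4 control libraries, as normalized counts per kb of annotated exon (log axis), in order of the mean; points are means, lines the range, colours the class. Col4a2 and Col4a1 lead, and Col1a1, Col3a1 and Col1a2 stand at ranks 19, 24 and 27.

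NP24 was compared with DPBS, the study's question being how neurons respond to a peptide of this organ. With NP24, 4 of 11 fibrillar collagens fell: Col3a1 9.77-fold, Col1a1 5.29-fold, Col1a2 3.79-fold and Col27a1 1.98-fold. In the basement membrane class Col18a1 fell 2.03-fold and Col4a1 1.51-fold. No transmembrane, fibril-associated or microfibril collagen passed the test, and no member rose. These 6 calls were among 39 members tested, where limma called 2.63% of all 21774 genes tested and 1.47% lower. Of all genes 253 were called higher and 319 lower, a split that became 508 and 256 when values were scaled by library size alone, while the collagen calls did not change. Col10a1, Col6a2, Col8a1, Col8a2 and Col13a1 had fewer than 10 normalized counts in too many libraries to be tested. Pericyte markers fell beside these collagens, among them Pdgfrb (-0.95 ± 0.21 with NP24 and -0.97 ± 0.20 with Tβ10); all marker lists are given after the collagens.

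Col3a1, which encodes the single chain of type III collagen (ENSMUSG00000026043.18, chromosome 1, 45311538 to 45349706, plus strand, GRCm38), stood at 131, 56.2, 72.5 and 118 normalized counts in control libraries 1 to 4 and at 16.7, 11.7, 3.48 and 6.23 with NP24. Every NP24 library lay below every control, and the NP24 values rested on only 3 to 18 reads. NP24 libraries 3 and 4 lay under the 10 normalized counts needed for testing, so Col3a1 was tested through the controls. On the scale of log2 of the normalized count plus 1, which every fold change and difference here uses, Col3a1 differed by -3.29 ± 0.50 (SE; limma adjusted p = 0.00116). Col1a1, the α1 chain of type I collagen (ENSMUSG00000001506.10, chromosome 11, 94936224 to 94953042, plus strand), measured 75.6, 58.0, 119 and 86.1 in the controls and 19.5, 19.2, 4.64 and 24.9 with NP24. Its groups did not overlap either, NP24 library 3 being lowest at 4 reads, and it fell by 2.40 ± 0.47 (limma adjusted p = 0.00796). Col1a2, the partner chain of type I collagen (ENSMUSG00000029661.16, chromosome 6, 4504814 to 4541544, plus strand), measured 60.2, 68.3, 79.0 and 112 in the controls and 15.7, 30.9, 9.28 and 32.9 with NP24, again without overlap (-1.92 ± 0.43, limma adjusted p = 0.0191). Col27a1, a fibrillar collagen gene best known from cartilage (ENSMUSG00000045672.15, chromosome 4, 63214004 to 63334991, plus strand), measured 336, 218, 273 and 355 against 138, 177, 144 and 131. All 4 NP24 libraries were below the lowest control (-0.98 ± 0.19, limma adjusted p = 0.00800).

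The other 7 fibrillar genes did not pass. Col5a1, whose chain takes part in starting fibrils, had all NP24 libraries below all controls (-0.79 ± 0.27) at a limma adjusted p of 0.113. Col5a2 differed by -0.61 ± 0.27, Col5a3 by -0.55 ± 0.44, Col11a2 by -0.40 ± 0.18, Col24a1 by -0.31 ± 0.61 and Col2a1, the cartilage collagen of type II, by 0.33 ± 0.34. Every NP24 library was above every control for Col2a1, the single positive member of the class (limma adjusted p = 0.679). Col11a1, the fibrillar gene with the highest level per kb, measured 732, 689, 592 and 922 in the controls and 524, 599, 466 and 667 with NP24; the groups overlapped (-0.37 ± 0.14, limma adjusted p = 0.176). The median difference of the 11 fibrillar genes was -0.61, beside -0.00 for all genes tested, and 10 of them were negative.

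The promoter of Col3a1 is shown because this gene had the largest called difference with NP24 and with Tβ10. The 250 bases before its annotated start (RefSeq, GRCm38.p6, chr1:45311288-45311537, plus strand) are printed with matches to the letters TATAAA, on either strand, in capitals.
Col3a1 promoter: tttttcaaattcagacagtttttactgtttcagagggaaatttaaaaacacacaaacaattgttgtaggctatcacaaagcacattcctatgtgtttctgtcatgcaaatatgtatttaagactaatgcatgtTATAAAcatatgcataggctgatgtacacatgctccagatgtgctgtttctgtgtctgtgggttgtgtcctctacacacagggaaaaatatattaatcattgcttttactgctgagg
It held 1 match, its first base 117 bases before the start, and none to CCAAT or GGGCGG. Windows of this length held TATAAA in 12.97% of 27025 promoters, CCAAT in 34.5% and GGGCGG in 32.9%. Of the 35 collagen promoters found in the table, 5 held TATAAA, 12 held CCAAT and 21 held GGGCGG.

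Among collagens of basement membranes, Col4a1 passed the test and its partner Col4a2 did not. Col4a1 (ENSMUSG00000031502.11, chromosome 8, 11198423 to 11312826, minus strand) measured 1233, 1056, 1181 and 1548 normalized counts in the controls and 794, 879, 878 and 741 with NP24. The groups did not overlap, and the difference was -0.60 ± 0.12 (limma adjusted p = 0.00873). Col4a2, which is transcribed from the opposite strand next to it (ENSMUSG00000031503.13, chromosome 8, 11312805 to 11449287, plus strand), measured 1403, 1414, 1306 and 1424 against 1059.9, 1343, 1126 and 1122. NP24 library 2 reached into the control range, and the difference of -0.26 ± 0.10 did not pass (limma adjusted p = 0.191). Whether the differences of the 2 genes differ from each other was not tested. Exons of the pair overlap by 22 bases, and whether reads were counted by strand is not given in the sources used here. Col18a1, whose protein releases the fragment endostatin (ENSMUSG00000001435.15, chromosome 10, 77052178 to 77166548, minus strand), measured 189, 239, 253 and 338 in the controls and 202, 100.2, 99.7 and 111 with NP24. NP24 library 1 lay within the control range and the other 3 below it (-1.02 ± 0.24, limma adjusted p = 0.0243).

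The promoter of Col18a1, which fell with NP24 and with Tβ10, is shown for comparison with that of Col3a1. The 250 bases before its annotated start (RefSeq, GRCm38.p6, chr10:77166531-77166780, minus strand, printed 5′ to 3′ along the gene) are given with matches to GGGCGG and CCAAT in capitals. All of them lay on the opposite strand, so they read CCGCCC and ATTGG here. Of the window, 18 bases overlap an annotated exon, and another annotated start further downstream is not shown.
Col18a1 promoter: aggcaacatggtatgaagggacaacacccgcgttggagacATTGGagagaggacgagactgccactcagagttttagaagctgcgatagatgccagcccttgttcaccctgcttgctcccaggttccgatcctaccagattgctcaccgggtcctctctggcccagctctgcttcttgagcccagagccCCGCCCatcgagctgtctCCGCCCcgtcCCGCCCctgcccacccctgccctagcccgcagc
This window held 3 matches to GGGCGG, the first base of the nearest lying 33 bases before the start, 1 to CCAAT with its first base at 210 bases, and none to TATAAA.

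The 5 remaining members of the basement membrane class did not pass with NP24: Col15a1 differed by 0.57 ± 0.31, Col4a3 by 0.22 ± 0.58, Col4a4 by 0.14 ± 0.33, Col4a5 by -0.14 ± 0.24 and Col4a6 by -0.02 ± 0.52. The class median was -0.08. Of the transmembrane collagens, Col23a1 measured 341, 456, 553 and 537 normalized counts in the controls and 447, 378, 419 and 389.6 with NP24. All NP24 libraries lay within the control range, and the 95% interval of the difference ran from -0.50 to 0.13. Col25a1, the neuronal member, measured 331, 306, 421 and 499.9 against 422, 344, 458 and 455, also within the control range, with an interval of -0.21 to 0.46. Both intervals leave out a fall as large as that of Col1a2, as does the wider interval of Col17a1 (-0.96 to 1.29). The class median over the 3 tested genes was 0.13.

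Fibril-associated collagens showed 1 member with groups that did not overlap: Col19a1, known from subsets of interneurons, was higher in every NP24 library (299, 334, 278 and 365 against 234, 216, 259 and 213), at a difference of 0.46 ± 0.16 that did not pass (limma adjusted p = 0.126). Groups without overlap were found for 5.07% of all genes in the higher direction and 4.77% in the lower. Col9a3 measured 325, 398, 335 and 406 in the controls and 319.6, 439, 301 and 289 with NP24, overlapping throughout (-0.13 ± 0.16). The class median was -0.24, with differences from -0.49 to 0.46. In the microfibril and network class the median was -0.60 over 8 tested genes. Col6a6, its highest member per kb, measured 519.8, 712, 696 and 307 against 461, 547, 354 and 229, with overlap (-0.49 ± 0.24). Col6a3, a large chain of type VI microfibrils, had the lowest difference of the class (-1.04 ± 0.52, limma adjusted p = 0.312).

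**Figure D3:**
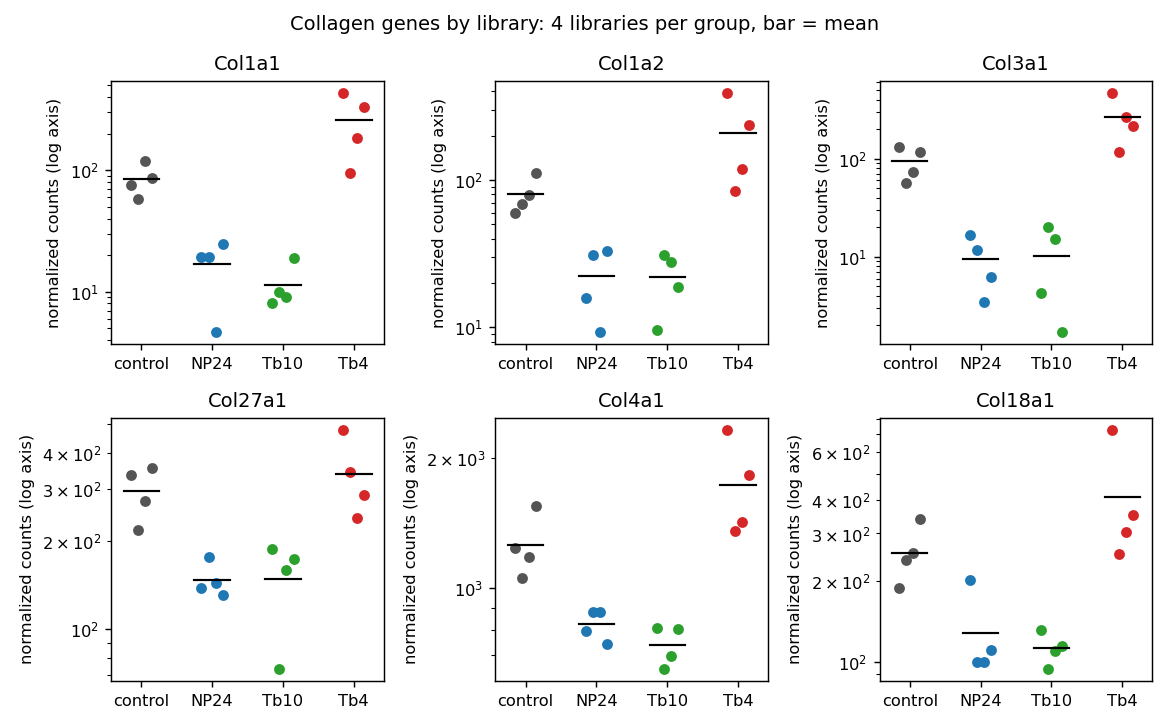
Normalized counts (log axis) of the 6 collagen genes called lower with NP24 or Tb10, 1 point per library, 4 libraries per group, bar at the mean. For Col1a1, Col1a2, Col3a1, Col27a1 and Col4a1 every NP24 and Tb10 library lies below every control; for Col18a1, NP24 library 1 lies within the control range.

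The NP24 calls leaned on single libraries to different degrees. Without control library 1, Col3a1 alone among the collagens was called, while Col1a1 and Col4a1 (both adjusted p = 0.0504) and Col27a1 (0.0635) missed the threshold. Col1a2 also missed it without control library 2 or 4 or NP24 library 3 (0.0527 to 0.0717 over these and control library 1), and Col18a1 without any control or NP24 library 3 (0.0504 to 0.0929). With the spread taken from all 16 libraries, only Col3a1 and Col1a1 passed: the adjusted p was 0.0768 for Col1a2, 0.104 for Col27a1, 0.0895 for Col4a1 and 0.116 for Col18a1. With a pseudocount of 10 in place of 1, the log2 difference of Col3a1 was -2.40.

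The comparison of Tβ10 with DPBS put the same question for this peptide, against the same control libraries. Col3a1 fell 10.8-fold with Tβ10, Col1a1 7.01-fold and Col1a2 3.75-fold. Col18a1 fell 2.22-fold and Col4a1 1.69-fold. These 5 calls, all lower, were among 42 members tested, where limma called 0.633% of 21960 genes and 0.533% lower. Scaling by library size alone moved the split of all genes from 22 higher and 117 lower to 56 and 67, and Col1a2 then missed the threshold (adjusted p = 0.0505). No member rose, and no transmembrane, fibril-associated or microfibril collagen passed. Groups without overlap were counted for 9 members in the lower direction and for none in the higher, beside 3.95% and 2.96% of all genes.

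Among the fibrillar genes, Col3a1 measured 4.29, 20.0, 15.3 and 1.71 normalized counts in Tβ10 libraries 1 to 4, the last being a single read. All 4 lay below the lowest control (-3.43 ± 0.58, limma adjusted p = 0.00709). Tβ10 libraries 1 and 4 were under 10 normalized counts, so Col3a1 was again tested through the controls. Col1a1 measured 8.04, 9.98, 9.01 and 18.8, 9 to 15 reads, without overlap with the controls (-2.81 ± 0.42, limma adjusted p = 0.00243). Only Tβ10 library 4 reached 10 normalized counts, so Col1a1 too was tested through the controls. Col1a2 measured 9.65, 31.1, 27.9 and 18.8, likewise all below the controls (-1.91 ± 0.41, limma adjusted p = 0.0372). Col27a1 measured 188, 73.2, 159 and 174. All were below the controls, yet Tβ10 library 2 lay far under the other 3 and the difference of -1.05 ± 0.26 did not pass (limma adjusted p = 0.0791). Col5a1 (-0.79 ± 0.27) and Col5a2 (-0.68 ± 0.24) also had groups without overlap and did not pass (limma adjusted p = 0.251 and 0.258). Col11a1 measured 764, 597, 554 and 558, overlapping the controls (-0.24 ± 0.15). Col5a3 differed by -0.93 ± 0.48, Col11a2 by -0.32 ± 0.20, Col2a1 by 0.42 ± 0.35 and Col24a1 by 0.58 ± 0.53. The class median was -0.79, beside -0.00 for all genes.

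In the basement membrane class, Col4a1 measured 806, 649, 697 and 803 and Col4a2 1104, 966, 1033 and 1052 with Tβ10. Each lay below all controls, but only Col4a1 passed (-0.76 ± 0.13, limma adjusted p = 0.00932, against -0.42 ± 0.11 and 0.0863 for Col4a2). Col18a1 measured 131, 94.3, 109.9 and 114, here without overlap with the controls (-1.15 ± 0.21, limma adjusted p = 0.0133). Col4a4 differed by -1.06 ± 0.43, Col4a3 by 0.46 ± 0.57, Col4a5 by -0.15 ± 0.22, Col4a6 by 0.36 ± 0.44 and Col15a1 by 0.21 ± 0.30, none passing, and the class median was -0.28. The transmembrane genes had differences of either sign: Col23a1 measured 408, 321, 416 and 493 and Col25a1 561, 278, 433 and 414, both overlapping the control range. The 95% interval of the difference was -0.56 to 0.17 for Col23a1 and -0.32 to 0.52 for Col25a1, while those of Col13a1 (-0.39 to 2.32) and Col17a1 (-1.90 to 0.74) were wide. The class median was -0.05, or 0.05 when scaled by library size alone, that of the fibril-associated class 0.14 and that of the microfibril and network class -0.33. Col9a3 measured 458, 346, 371 and 413 and Col6a6 199, 576, 238 and 181, both overlapping the controls.

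Col1a1 passed whichever library was left out of the Tβ10 comparison. Col3a1 missed the threshold without control library 1 or 4 (adjusted p = 0.0557 to 0.0855), Col4a1 without those or Tβ10 library 3 (0.0557 to 0.0641), Col18a1 without control library 2 or 4 or Tβ10 library 3 (0.0543 to 0.0751), and Col1a2 without any control, Tβ10 library 3 or Tβ10 library 4 (0.0711 to 0.148). Col27a1 passed without Tβ10 library 1 (0.03002) and by DESeq2 (0.0119). Neither Col1a2 (0.101) nor Col18a1 (0.0923) passed when the spread came from all 16 libraries, nor did Col1a2 without a filter on low values (0.0655). A pseudocount of 10 gave log2 differences of -2.40 for Col3a1 and -2.13 for Col1a1.

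With Tβ4, compared with the same control libraries, most collagens had values above the controls, but none passed. Of 43 members tested, 40 had a positive difference and 3 a negative one; the median was 0.62, beside -0.00 for all genes. limma called 0 of 22205 genes (0%), and so did edgeR. At an unadjusted p under 0.05 there were 14 collagens and 1568 genes, or 7.06% of those tested. DESeq2 on the recovered reads called 82 genes (0.369%), 5 of them collagens: Col1a1, Col3a1, Col6a3 and Col12a1 higher and Col11a2 lower.

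Col3a1 measured 467, 116, 266 and 218 normalized counts in Tβ4 libraries 1 to 4, Tβ4 library 2 alone lying within the control range (1.40 ± 0.39, limma adjusted p = 0.458). Col1a1 measured 432, 94.2, 185 and 334 and Col1a2 390.2, 84.0, 119 and 237, in each case highest in Tβ4 library 1 and lowest in Tβ4 library 2. The differences were 1.44 ± 0.41 and 1.16 ± 0.41 (limma adjusted p = 0.458 and 0.571). Col27a1 measured 479, 343, 239 and 287, within or around the control range except in Tβ4 library 1 (0.17 ± 0.23). Col5a2 ran from 277 to 580.4 and was above all controls (144 to 227), at 0.97 ± 0.25. Col11a2, a chain of type XI collagen, went the other way, from 293 to 439 in the controls to 185 to 233 with Tβ4 (-0.74 ± 0.18, limma adjusted p = 0.442). Its partner Col11a1 measured 826, 979.9, 658 and 779.6, overlapping the controls (0.15 ± 0.16). Groups without overlap were counted for 7 members in the higher and 1 in the lower direction, beside 2.26% and 2.17% of all genes.

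Of the basement membrane genes, Col4a1 measured 2321, 1356, 1422 and 1823 and Col4a2 1818, 1436, 1462 and 1537. For Col4a2 all Tβ4 libraries lay above all controls, by 0.17 ± 0.12, and for Col4a1 the difference was 0.44 ± 0.18 with overlap (limma adjusted p = 0.872 and 0.636). Col18a1 measured 728, 251, 304 and 351, with Tβ4 library 1 far above the other 3 (0.58 ± 0.29). Col25a1 measured 873, 721, 272 and 300.5, with Tβ4 libraries 1 and 2 above all controls and 3 and 4 below the lowest, at 0.32 ± 0.33. Col23a1 measured 605, 514, 332 and 433, and its difference had a 95% interval of -0.45 to 0.43. Col13a1, not tested here, measured 191, 9.08, 4.14 and 3.55, so that the level in Tβ4 library 1 had no counterpart in the other libraries. Col9a3 measured 277, 399.7, 334 and 415, overlapping the controls (-0.05 ± 0.17). Col12a1, a fibril-associated collagen that binds type I fibrils, ran from 214 to 289, above all controls (1.03 ± 0.25). Col6a6 measured 2549, 354, 1241 and 395, a spread wider than the whole control range, and Col6a3 ran from 63.9 to 279, above all controls (1.66 ± 0.46, limma adjusted p = 0.458). Class medians were 0.69 for fibrillar, 0.51 for basement membrane, 0.32 for transmembrane, 0.37 for fibril-associated and 1.18 for the other collagens.

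The outcome of this comparison turned on Tβ4 library 2. Without it limma called 354 genes and 6 collagens, all 6 higher, among them Col1a1 (1.85, adjusted p = 0.00596), Col3a1 (1.74, 0.0113) and Col1a2 (1.503, 0.0361). Without Tβ4 library 1 it called 0 genes, and Col1a1 differed by 1.12, Col3a1 by 1.07 and Col27a1 by -0.02.

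**Figure D4:**
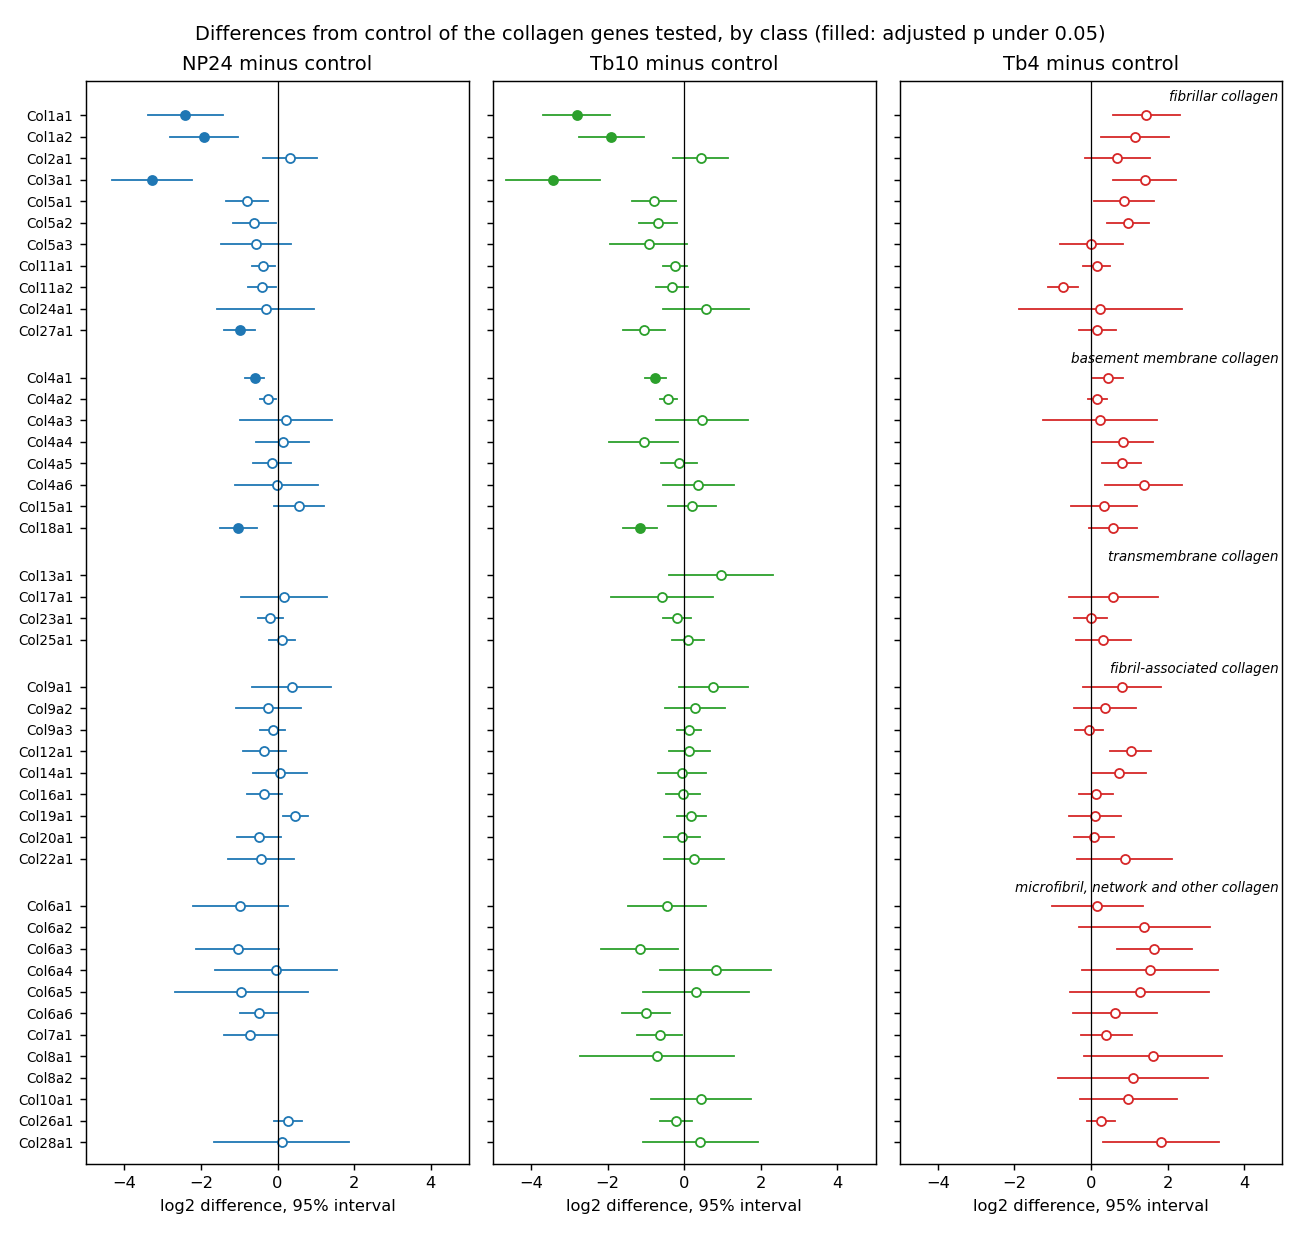
Difference of each tested collagen gene from the controls (x axis, log2 scale, points; lines are 95% intervals) for NP24, Tb10 and Tb4, by class; filled points have a limma adjusted p under 0.05. Filled points appear for 6 genes with NP24 and 5 with Tb10, all below 0, and for none with Tb4, where 40 of 43 points lie above 0.

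Set against each other in 1 fit of all 16 libraries, Tβ10 and NP24 gave no collagen that differed past the threshold. limma, edgeR and DESeq2 each called 0 of 24232 genes (0%), and 3 collagens and 591 genes had an unadjusted limma p under 0.05. For Col3a1 the difference of Tβ10 from NP24 was -0.14 ± 0.59 with a 95% interval of -1.38 to 1.09, and for Col1a1 it was -0.40 ± 0.49 (-1.43 to 0.62). The smallest p belonged to Col4a4, a chain of type IV collagen known from kidney (-1.198 ± 0.43), and Col26a1 (-0.49 ± 0.19), both with a limma adjusted p of 1.000. These intervals are wide for the genes with few reads and do not show that the 2 peptides act alike.

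Tβ4 was higher than either other peptide for many collagens. Against NP24, limma called 2.09% of 24232 genes, 1.65% higher, and 11 of 44 collagens, all higher with Tβ4. Col3a1 was higher by 4.68 ± 0.59 (25.7-fold), Col1a1 by 3.84 ± 0.49, Col1a2 by 3.08 ± 0.48, Col6a3 by 2.70 ± 0.51, Col18a1 by 1.603 ± 0.28, Col12a1 by 1.38 ± 0.23 and Col4a1 by 1.04 ± 0.15. The adjusted p from limma was 0.000267 for Col3a1 and 0.00112 for Col4a1. Col5a1 (1.66), Col5a2 (1.58), Col27a1 (1.15) and Col4a2 (0.43) completed the set. Scaling by library size alone moved the median of all genes by -0.14 and the split of calls from 400 higher and 107 lower to 269 and 363, and ended the call of Col4a2 (adjusted p = 0.177). By class these were 6 of 11 fibrillar, 3 of 8 basement membrane, 0 of 4 transmembrane, 1 of 9 fibril-associated and 1 of 12 other collagens.

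Against Tβ10, limma called 1.35% of 24232 genes, 1.05% higher, and again 11 collagens, all higher with Tβ4: 6 fibrillar, 4 basement membrane and 1 other. Col3a1 was higher by 4.83 ± 0.59 (28.4-fold), Col1a1 by 4.25 ± 0.49, Col1a2 by 3.06 ± 0.48, Col6a3 by 2.82 ± 0.51, Col4a4 by 1.89 ± 0.43, Col18a1 by 1.73 ± 0.28 and Col4a1 by 1.199 ± 0.15. Col5a1, Col5a2, Col27a1 and Col4a2 were the others, at 1.66, 1.66, 1.22 and 0.58. Scaling by library size alone moved the median of all genes by -0.18 and the split of calls from 254 higher and 72 lower to 165 and 449, and ended the call of Col4a2 (adjusted p = 0.0641). The 2 comparisons share the Tβ4 libraries. Of the transmembrane genes, Col25a1 differed by 0.19 ± 0.29 from NP24 and 0.22 ± 0.29 from Tβ10, and Col23a1 by 0.17 ± 0.18 and 0.18 ± 0.18.

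Without Tβ4 library 1 the count was 7 collagens in each comparison. Col1a1 (3.53 against NP24 and 3.93 against Tβ10), Col3a1 (4.36 and 4.50), Col1a2, Col4a1, Col18a1 and Col5a2 still passed, while Col5a1, Col27a1 and Col4a2 did not in either. Without it Col6a3 missed the threshold against NP24 (adjusted p = 0.0504) and Col4a4 against Tβ10 (0.150). Other single libraries also ended calls: NP24 library 1, 3 or 4 those of Col27a1 and Col4a2 against NP24, Tβ4 library 4 that of Col4a2 against NP24, Tβ10 library 2 that of Col27a1, and Tβ10 library 2 or 4 or Tβ4 library 4 that of Col4a4 (adjusted p 0.0602 to 0.125 and 0.0955 to 0.199 against NP24, and 0.0555 to 0.125 and 0.0518 to 0.150 against Tβ10, Tβ4 library 1 included). A fit of only the 8 libraries compared ended the calls of Col18a1 (adjusted p = 0.0515), Col5a1 (0.0788) and Col4a2 (0.175) against NP24, and those of Col27a1 (0.150), Col4a2 (0.0857), Col4a4 (0.163) and Col5a1 (0.133) against Tβ10. Testing without a filter ended those of Col4a2 against NP24 (0.0802) and Col4a4 against Tβ10 (0.0531). With a pseudocount of 10, Col3a1 was higher by 3.71 than with NP24 and 3.71 than with Tβ10, and Col1a1 by 3.19 and 3.48.

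Summed levels are given for chosen fibrillar and basement membrane genes and for the whole transmembrane class. Col1a1, Col1a2 and Col3a1 together held 183 to 316 normalized counts in the controls, 17.4 to 64.0 with NP24, 21.97 to 61.0 with Tβ10 and 294 to 1289 with Tβ4, so that every control lay above all 8 NP24 and Tβ10 libraries. Their share of all collagen counts was 2.26 to 3.34% in the controls, 0.275 to 0.963% with NP24, 0.310 to 1.06% with Tβ10 and 3.00 to 7.59% with Tβ4. Col4a1 and Col4a2 together held 2469.9 to 2973, 1854 to 2222, 1615 to 1909.6 and 2792 to 4139 in the same order, also without overlap between the controls and NP24 or Tβ10. The 4 transmembrane genes held 728 to 1059, 742 to 920.0, 616 to 1027 and 628 to 1730.3, with the groups overlapping. The fibrillar and type IV sums are descriptions of genes chosen partly for their differences. Shares of whole classes differed less in proportion, though some did not overlap the controls. The whole fibrillar class held 22.4 to 25.7% of collagen counts in the controls and 16.3 to 21.5% with NP24. It held 19.8 to 23.0% with Tβ10 and 23.0 to 26.1% with Tβ4. The whole basement membrane class held 36.9 to 39.8%, 36.5 to 38.5%, 33.6 to 34.7% and 32.5 to 41.8% in the same order. The whole fibril-associated class held 14.6 to 15.2%, 17.5 to 18.0%, 19.2 to 21.7% and 10.6 to 18.0%. Its share was thus above every control with NP24 and with Tβ10. Below every control were the fibrillar share with NP24 and the basement membrane share with Tβ10.

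**Figure D5:**
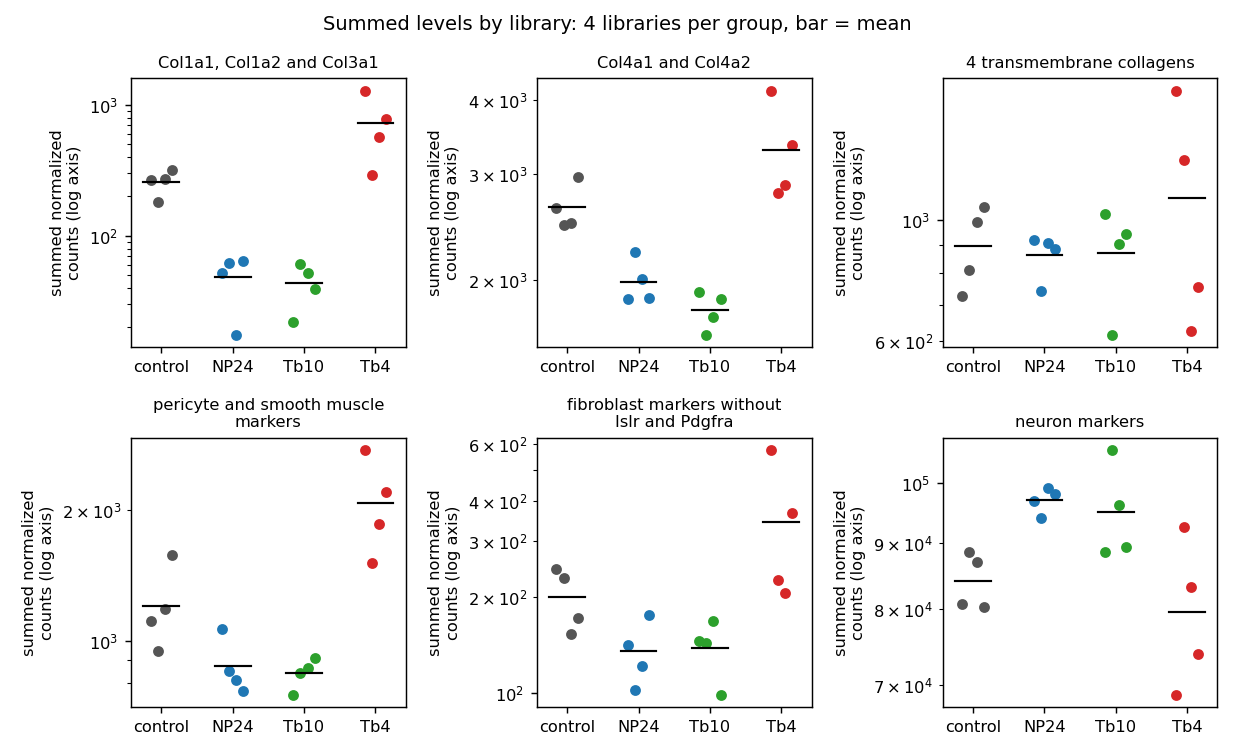
Summed normalized counts (log axis) by library, 4 libraries per group, bar at the mean, for 3 sets of collagen genes (upper row) and 3 sets of cell type markers (lower row). The 3 fibrillar genes and the Col4a1 and Col4a2 pair lie lower with NP24 and Tb10 than in every control, while the transmembrane sums overlap; pericyte markers sum to 944 to 1573 in the controls and 1506 to 2740.0 with Tb4.

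Markers of some other cell types moved with the collagens. Of 10 markers of pericytes and smooth muscle, 3 of 7 tested fell with NP24 (Anpep, Pdgfrb and Rgs5) and 2 of 8 with Tβ10 (Pdgfrb and Rgs5), and none rose. Of all genes tested, 1.47% were called lower with NP24 and 0.533% with Tβ10. Anpep held 0 to 6.96 normalized counts with NP24 and 16.9 to 60.9 in the controls. It was therefore tested there only through the controls. Tβ4 was higher than NP24 for Anpep, Pdgfrb and Rgs5 and higher than Tβ10 for Pdgfrb, Rgs5 and the smooth muscle gene Tagln. Rgs5, a pericyte gene, measured 185, 64.6, 132 and 149.5 normalized counts in the controls, 50.03, 27.7, 23.2 and 64.0 with NP24, 10.2, 46.6, 39.6 and 23.9 with Tβ10 and 478, 242, 539 and 485 with Tβ4. It fell by 1.68 with NP24 and by 2.21 with Tβ10 (limma adjusted p = 0.0179 and 0.0242). The 10 markers summed to 944 to 1573 in the controls, 768 to 1064 with NP24, 751 to 912 with Tβ10 and 1506 to 2740.0 with Tβ4. Their part in the collagen results was not tested.

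No marker of fibroblasts and meninges was called in a comparison with the controls, among 14 listed and 6 to 8 tested. Between peptides, Tbx18 was higher with Tβ4 than with NP24 (4.70 ± 0.88), and 7 of 8 tested markers were positive with Tβ4 against either peptide (median 1.13 against NP24 and 1.05 against Tβ10). Tbx18 measured 3.54, 26.2, 2.42 and 59.1 normalized counts in control libraries 1 to 4. It averaged 1.16 under NP24, 4.21 under Tβ10 and 43.0 under Tβ4. Too few libraries reached the filter for Tbx18 to be tested with NP24 or Tβ10 against the controls. Between peptides Tbx18 was tested only through the Tβ4 libraries (23.4 to 76.8 normalized counts). It held at most 4.63 with NP24 and 7.77 with Tβ10, so its difference of 4.70 rests on NP24 values near the floor. The defining genes Dcn and Lum were near 0, at most 17.1 normalized counts, with Lum at 0 in 9 libraries. The sum of the list was mostly Islr and Pdgfra; without this pair, a choice made after the values were seen, it was 153 to 245 in the controls, 102 to 175 with NP24, 98.9 to 168 with Tβ10 and 206 to 576 with Tβ4. Cd68, a macrophage gene, fell with NP24 (-1.28 ± 0.26) and Tβ10 (-1.30 ± 0.27), the only 1 called of 9 microglia and macrophage markers, of which 6 were tested with NP24 and 7 with Tβ10. The median of those tested was -0.96 with NP24, 5 being negative, and -1.01 with Tβ10, 6 being negative. Csf1r was at 54.4 to 82.3 with NP24 and 54.0 to 71.6 with Tβ10, below all controls (88.0 to 138) without passing, and C1qb was at 5.797 to 18.5 with NP24, also below all controls (27.0 to 45.9) without passing. The summed level of the list, most of it Cx3cr1, was 1916 to 2224 for controls, 1765 to 1897 for NP24, 1697 to 2054 for Tβ10 and 2065 to 2566 for Tβ4. Of 8 astrocyte markers Aqp4 alone was called, higher with NP24 (1.70 ± 0.25) and Tβ10 (1.67 ± 0.30), and the sums were 8488 to 10229 in the controls, 10324 to 11105 with NP24, 8463 to 12297 with Tβ10 and 10719 to 14564 with Tβ4. Against the other peptides, Tβ4 was higher for Csf1r, C1qa and Cd68 of the microglia and macrophage list in both comparisons, and for C1qb against Tβ10. No neuron marker was called in any comparison. Their sums were 80258 to 88577 in the controls, 93936 to 99109 with NP24, 88478 to 106015 with Tβ10 and 68778 to 92580.3 with Tβ4. Every NP24 sum lay above every control. All 10 markers had a positive difference with NP24 (median 0.22), and 8 with Tβ10 (median 0.11). With Tβ4, 7 were negative against the controls (median -0.10) and all 10 against NP24. Endothelial markers summed to 113 to 208 with NP24, 113 to 206 with Tβ10 and 141 to 771 with Tβ4, with none called and Cldn5 at 0 in 12 libraries. Mitochondrial ribosomal RNA took 7.15 ± 1.03% of reads with NP24 and 7.20 ± 1.96% with Tβ10, against 11.3 ± 2.07% in the controls and 15.3 ± 6.71% with Tβ4 (SD, n = 4). The part of these values in the collagen results was not tested.

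Genes that act on collagens were called less often than the fibrillar class, a difference that was not tested. Of 30 genes for collagen synthesis and crosslinking, 29 tested, 1 fell and 1 rose with NP24. Serpinh1, the chaperone of procollagen in the endoplasmic reticulum, measured 593, 506, 408 and 578 normalized counts in the controls and 368, 316, 323 and 227 with NP24, without overlap (-0.76 ± 0.16, limma adjusted p = 0.0154). Adamts2, which removes the amino-terminal propeptide of fibrillar procollagens, measured 197, 239, 295 and 229.5 against 400.2, 289.9, 444 and 527 and rose by 0.77 ± 0.18 (limma adjusted p = 0.0255), with NP24 library 2 inside the control range. With Tβ10 neither passed: Serpinh1 was at 188, 407, 329 and 254 (-0.86 ± 0.20, limma adjusted p = 0.0616) and Adamts2 at 487, 271, 449 and 611 (0.87 ± 0.21, 0.0727). The list's median was -0.16 with NP24 and -0.03 with Tβ10. Against NP24, Tβ4 was higher for 3 of 30: the lysyl oxidases Lox (3.38 ± 0.82) and Loxl2 (1.92 ± 0.41), which crosslink collagen, and the prolyl isomerase gene Fkbp10 (1.58 ± 0.40). Against Tβ10 it was higher for Lox (3.86 ± 0.82) and Loxl2 (2.49 ± 0.41). With Tβ4, the pair with the smallest p against the controls was Loxl2 (1.21 ± 0.36) and Lox (2.63 ± 0.78), neither passing. Lox reached 10 normalized counts only with Tβ4 (12.4 to 40.2). It held at most 7.49 in the controls, 1.16 with NP24 and 1.80 with Tβ10. It was therefore tested only through the Tβ4 libraries, and its differences rest on values near the floor in the other groups.

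Of 11 collagen receptors, 10 tested, only Ddr2 was called against the controls. Ddr2, a receptor tyrosine kinase activated by fibrillar collagen, measured 434, 431, 309 and 319 normalized counts in the controls, 233, 238, 228 and 278 with NP24, 175, 206, 219.8 and 177 with Tβ10 and 707, 537, 408 and 381 with Tβ4. All NP24 and Tβ10 libraries were below the controls. It fell by 0.92 ± 0.17 with Tβ10 (limma adjusted p = 0.0161), and with NP24 the difference of -0.59 ± 0.16 did not pass (0.0526). Tβ4 was higher than NP24 for Ddr2 (1.01 ± 0.19), Itgb1 (0.44 ± 0.12), the shared chain of the collagen-binding integrins, and Lair1 (2.43 ± 0.50), an inhibitory receptor of immune cells, and higher than Tβ10 for Ddr2 (1.34 ± 0.19). None of 12 genes for collagen degradation was called against the controls, 9 or 10 being tested. The smallest p belonged to Mmp2, a gelatinase, with NP24 (-1.56 ± 0.58, limma adjusted p = 0.162) and to Mmp14, a membrane-bound collagenase, with Tβ10 (-0.52 ± 0.18, 0.250). Mmp2 was higher with Tβ4 than with NP24 (2.77 ± 0.58) and Tβ10 (2.31 ± 0.58). Mmp14 was higher (1.00 ± 0.23) and the inhibitor gene Timp4 lower (-0.74 ± 0.19) with Tβ4 than with Tβ10.

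Fold changes given by the study for the same genes can be set beside these. The authors' values came from DESeq2, not limma. Their tables hold 45724 genes, and all 44 collagens had an adjusted p. In the authors' deposited table for NP24, 409 genes had an adjusted p under 0.05. Of these, 5 were collagens: Col3a1 (-3.30), Col1a1 (-2.30), Col1a2 (-1.84), Col27a1 (-1.004) and Col4a1 (-0.61), all on the log2 scale. Col18a1, called lower with NP24 by limma, missed the threshold there (-0.99, authors' DESeq2 adjusted p = 0.0674). The authors' deposited table for Tβ10 listed 263 genes and 7 collagens, the same 5 as for NP24 with Col18a1 (-1.18) and Col4a2 (-0.42). The authors' deposited table for Tβ4 listed 163 genes and 3 collagens, all higher: Col6a3 (1.91), Col1a1 (1.62) and Col12a1 (0.98).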

How the data were processed

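Total RNA of cultured neurons was purified with RNeasy Micro columns and made into libraries with a SMARTer kit for stranded total RNA (v2), per the labels' protocols. The submitters' processing notes name GRCm38, FastQC, HISAT, HISAT2, featureCounts and DESeq2 for the authors' steps; tool versions, annotation and strand setting are not given in the sources used here. The 3 deposited tables hold signal, gene counts that the authors divided by a size factor per library (normalized counts, the same in each table). They also hold the authors' log2 fold changes, a Wald score and p-values, deposited per comparison. Every value was a whole multiple of 1 read (100% at a tolerance of 0.01 reads), so read counts were recovered.

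Genes that reached 10 normalized counts in 4 or more of the libraries compared were tested with limma 3.58.1 (R 4.3.3) on log2(normalized count + 1), with trend and Benjamini-Hochberg adjustment over all genes, at 0.05. Comparisons with controls used their 8 libraries, and those between peptides all 16. edgeR 4.0.16, DESeq2 1.42.0, other scalings, pseudocounts of 0.1 and 10, no filter, a replicate block, another set of libraries for the spread and each library left out were alternatives. The procedure was tested on simulated data, with differences placed only in genes well above the filter and the same spread for every gene. That test does not cover genes with few reads or a library that stands apart. Members and lists were chosen with earlier results of these data known. Library values are given for members called against the controls, the member of each class with the highest level per kb, and Col25a1, added for its class; listed pathway genes are named where called, or else by smallest p. Positions and coding sequences are from GENCODE mouse release 21 and promoters from RefSeq; protein sequences were not used here.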

Additional observations from a re-analysis of the deposited data

Results flagged for a closer look

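These values stood so far from the other 3 libraries of their group that the gap, as a share of the group's whole range, passed Dixon's critical value at 95% for 4 samples. Of 136 groups examined, 9 met it, where chance gives about 1 in 20.

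In NP24 library 1, Col18a1 measured 202, against 99.7 to 111 normalized counts in the other NP24 libraries, and Col4a4 measured 104, against 51.0 to 56.5. In Tβ10 library 2, Col5a1 was low at 41.0, against 73.3 to 77.5, and Col6a6 was high at 576, against 181 to 238. In Tβ4 library 1, Col5a2 measured 580.4, against 277 to 313, the 44 collagens summed to 18092, against 9605 to 10384, and the 10 endothelial markers summed to 771, against 141 to 213. The 11 collagen receptors summed to 5069, against 5204 to 5229, in NP24 library 4, and the 12 genes for collagen degradation to 12839.7, against 8825 to 8895, in Tβ4 library 2.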

How the results depend on the processing

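Few reads behind Col1a1, Col1a2 and Col3a1 with NP24 and Tβ10 limit their fold changes, and 4 libraries per group limit every call. The called collagens kept their direction under all alternatives run. For NP24, where limma called 572 genes and 6 collagens, DESeq2 called 1178 genes, no filter 365, and the spread of all 16 libraries 120 genes and 2 collagens. For Tβ10, with 139 genes and 5 collagens, DESeq2 called 432 genes, the replicate block 91, and the spread of all 16 libraries 62 genes and 3 collagens. For Tβ4, with 0, DESeq2 called 82 genes and 5 collagens, and the replicate block and the spread of all 16 libraries 2 genes each. For Tβ4 against NP24, with 507 genes and 11 collagens, DESeq2 called 1172 genes and a fit of the 8 libraries compared 109 genes and 8 collagens. For Tβ4 against Tβ10, with 326 genes and 11 collagens, DESeq2 called 813 genes, library-size scaling 614, no filter 184, the replicate block 214 and the fit of 8 libraries 77 genes and 7 collagens. The cause was not tested.

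Leaving out 1 library at a time gave 106 to 760 genes and 1 to 6 collagens for NP24, 28 to 315 and 1 to 7 for Tβ10, 0 to 354 and 0 to 6 for Tβ4, 104 to 1392 and 7 to 14 for Tβ4 against NP24, and 87 to 1052 and 7 to 14 for Tβ4 against Tβ10; Tβ10 against NP24 stayed at 0. The lowest counts belonged to control library 1 (NP24 genes and collagens, Tβ10 genes), control library 4 (Tβ10 collagens) and Tβ4 library 1 (both comparisons of Tβ4 with a peptide). For Tβ4 against the controls Col27a1 ran from -0.017 without Tβ4 library 1, the 1 change of sign, to 0.32 without Tβ4 library 3.

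The labels do not say whether same-numbered libraries were prepared together. Over 15761 genes, deviations of same-numbered libraries correlated at -0.63 to 0.22, above 0.1 in 5 of 24 pairs, and 6 of 24 correlated best with their own number. These values gave no sign of pairing, but they cannot show that there was none. With the replicate number as a block, NP24 had 477 genes and 6 collagens, Tβ10 91 and 6, and Tβ4 2 and 0. Tβ4 against NP24 had 341 and 10, and Tβ4 against Tβ10 214 and 11. For Tβ10 the block ended the call of Col1a2 (adjusted p = 0.0512) and added Col27a1 (0.02998), and it ended that of Col4a2 for Tβ4 against NP24 (0.0844).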

Other observations

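Paired chains of 1 protein varied in their ratio between libraries, which was looked at after the values were seen and was not tested. Col4a1 over Col4a2, per kb of exon, was 0.662 to 0.964 in the controls, 0.581 to 0.691 with NP24, 0.596 to 0.677 with Tβ10 and 0.837 to 1.13 with Tβ4; the NP24 and Tβ10 ranges lay wholly below that of Tβ4. Col1a1 over Col1a2, the chains of type I collagen, was 1.45 to 2.86 in the controls, 0.947 to 2.34 with NP24, 0.609 to 1.89 with Tβ10 and 2.09 to 2.95 with Tβ4, with overlapping ranges except between Tβ10 and Tβ4, and with as few as 4 reads of Col1a1 in NP24 library 3. The size of this ratio depends on the annotated exon length, 6563 bases for Col1a1 and 12426 for Col1a2. Without division by length it was 0.767 to 1.51 in the controls.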
